A study of Mus musculus with 16 samples.

Results

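The genes described here encode the enzymes and receptors through which cells handle extracellular ATP and adenosine: Entpd1, Nt5e, Adora2a, Adora2b, Ada, P2rx7 and P2ry12. They are listed by symbol under a rule that sets no threshold on a measured value, although earlier results of these data were known when the list was made. Each gene is read by the probe set that carries only its symbol. Of the 7 listed genes 5 had such a probe set, 1 each, among 19938 genes with a named probe set. Adora2a and Adora2b are not analysed here.

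The study profiled CD11b+ DCs, lung myeloid cells of C57BL/6 mice gated on 3 surface proteins, CD11c, MHC2 and CD11b. All mice carried Lewis lung carcinoma (LLC), a transplantable mouse lung tumour line that was placed in the airways of these syngeneic, immunocompetent hosts. The 16 arrays comprised 8 titled tumoral, from cells sorted out of the tumour, and 8 titled peritumoral, from cells of the lung beside it in tumour-bearing animals. No array from a lung without a tumour is among them, and the labels give neither the age nor the number of animals, nor whether animals were pooled. P-values therefore reflect how much these arrays differ among themselves, and some of that spread may be technical. The values are whole-transcript array signals deposited by the authors and read as log2, so a difference of 1 is a doubling if the base is 2. The array medians ran from 6.75 to 6.95, and the number of arrays sets the precision.

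ATP that leaves stressed or dying cells is sensed by P2 receptors, of which the P2X type are ion channels and the P2Y type couple to G proteins. CD39, encoded by Entpd1, removes phosphates from ATP and ADP to give AMP, and CD73, encoded by Nt5e, turns AMP into adenosine. Adenosine acts on its own receptors and, in tumours, is known for restraining T cells and dendritic cells. Adenosine deaminase, encoded by Ada, converts it to inosine.

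The arrays did not sort by title alone. In the order of deposition the values of many genes repeated every 3 arrays, so each array is also given by its place in a run of 3. The first place holds peritumoral 1, 4 and 7 and tumoral 2, 5 and 8. The second holds peritumoral 2, 5 and 8 and tumoral 3 and 6, and the third holds peritumoral 3 and 6 and tumoral 1, 4 and 7. No label says what the place stands for, and this grouping was noticed in the values, so a p-value between places describes these arrays only. Whether the places are separate cell populations or conditions, and whether each title stands with the array it was meant for, is not known here. Tumoral and peritumoral therefore mean the deposited titles throughout, and every difference between them holds only as far as those titles do. In limma, with title and place as terms, 6706 of 19938 genes passed an adjusted p of 0.05 between places, or 33.6%. By title 0 genes passed, or 0%, with 2292 genes (11.5%) at an unadjusted p under 0.05. With place as a block 0 genes passed by title as well, with 3807 (19.1%) at an unadjusted p under 0.05. Third-place arrays had the highest macrophage markers, with a list mean of 11.63 to 11.93 against 10.77 to 11.58 elsewhere, and the lowest conventional dendritic cell markers, at 9.58 to 10.05 against 10.35 to 10.82. The sorting genes were high in all 16 arrays, with Itgax (CD11c) at 11.07 or more, Itgam (CD11b) at 10.18 or more and H2-Ab1 at 13.06 or more. None passed by title (limma adjusted p = 0.508, 0.888 and 0.818). By place, Itgam was higher in third-place arrays without overlap, at 11.53 to 11.80. It measured 10.18 to 11.22 in first-place and 11.08 to 11.50 in second-place arrays. How many of all genes separated the third place like this was not counted. Itgax and H2-Ab1 overlapped between places. Peritumoral 4 stood apart, with the highest endothelial, fibroblast, epithelial, neutrophil and lymphocyte marker means of any array.

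The promoters of the genes on which the results turn are shown so that the gene pairs that varied together can be compared by sequence. They are the 250 bases before an annotated start, 5′ to 3′ on the gene's strand, from RefSeq on GRCm38.p6. Capitals mark 3 motifs searched on both strands: the HIF core ACGTG, the CRE half-site TGACG and the PU.1 core GAGGAA.
Entpd1, upstream start, chr19:40612116-40612365, plus strand: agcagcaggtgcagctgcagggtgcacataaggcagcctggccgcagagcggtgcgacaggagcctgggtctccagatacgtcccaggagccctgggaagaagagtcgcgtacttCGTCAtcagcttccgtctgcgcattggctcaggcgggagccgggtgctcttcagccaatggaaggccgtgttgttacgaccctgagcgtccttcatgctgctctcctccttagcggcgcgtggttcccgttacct
Entpd1, downstream start, chr19:40659520-40659769, plus strand: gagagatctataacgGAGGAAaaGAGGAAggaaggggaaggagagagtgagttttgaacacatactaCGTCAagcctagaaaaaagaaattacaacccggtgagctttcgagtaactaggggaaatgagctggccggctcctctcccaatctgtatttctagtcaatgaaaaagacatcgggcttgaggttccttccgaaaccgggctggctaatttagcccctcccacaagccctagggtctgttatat
Nt5e, chr9:88327359-88327608, plus strand: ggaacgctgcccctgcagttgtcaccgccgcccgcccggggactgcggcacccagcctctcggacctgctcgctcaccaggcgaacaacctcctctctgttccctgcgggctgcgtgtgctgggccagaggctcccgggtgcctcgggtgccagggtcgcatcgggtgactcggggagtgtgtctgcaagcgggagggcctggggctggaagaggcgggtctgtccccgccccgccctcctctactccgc
P2rx7, upstream start, chr5:122643677-122643926, plus strand: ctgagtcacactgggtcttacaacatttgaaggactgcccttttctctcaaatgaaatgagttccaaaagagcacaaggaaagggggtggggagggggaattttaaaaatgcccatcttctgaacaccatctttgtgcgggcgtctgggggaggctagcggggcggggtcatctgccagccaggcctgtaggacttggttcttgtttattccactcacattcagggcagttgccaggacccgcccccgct
P2ry12, chr3:59262986-59263235, minus strand: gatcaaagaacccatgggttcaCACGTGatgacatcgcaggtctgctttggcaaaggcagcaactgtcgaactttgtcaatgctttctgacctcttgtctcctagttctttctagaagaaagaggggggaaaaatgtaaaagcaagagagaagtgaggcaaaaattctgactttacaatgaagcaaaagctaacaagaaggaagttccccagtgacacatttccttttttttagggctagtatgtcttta

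The windows were compared only by their matches to the 3 motifs and by their content of G and C. The P2ry12 window held 2 overlapping HIF core matches, 1 on each strand of the palindrome CACGTG. Both Entpd1 windows held 1 CRE half-site match, and the downstream one held 2 PU.1 core matches as well. No match to the 3 motifs was found in the windows of Nt5e, P2rx7 (both starts) or Ada. Of 32851 such windows in the table, 16.6% held the HIF core, 17.8% the CRE half-site and 23.3% the PU.1 core. The Nt5e window was the richest of the 7 member windows in G and C at 72.0%, and the P2ry12 window the poorest at 41.6%. A match describes the letters and is not a binding site.

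Entpd1, the CD39 gene at the head of the pathway, lay higher in tumoral arrays on average. It measured 11.25, 11.03, 10.95, 10.92, 11.13, 11.03, 11.35 and 11.22 in peritumoral 1 to 8. In tumoral 1 to 8 it measured 11.30, 11.39, 11.24, 11.44, 11.43, 11.25, 11.29 and 11.40. Only peritumoral 1 and 7 reached into the tumoral range, and the lowest tumoral value was 11.244. The titles overlapped in all 5 members, as they did in all but 0.0853% of genes. The group means were 11.34 ± 0.08 (SD, n = 8) and 11.11 ± 0.16 (SD, n = 8). The log2 difference was 0.23, with a 95% interval of 0.09 to 0.37, or 1.18-fold. Its unadjusted p of 0.00246 ranked 196 of all genes, and its adjusted p of 0.248 did not pass in limma. The tumoral spread was the narrower one, at a range of 0.20 against 0.43 log2 units.

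The means of markers of other cell types also lay apart by title, though no single marker passed, as no gene did. The means of 0 of 10 endothelial, 0 of 8 fibroblast, 0 of 9 lung epithelial, 0 of 9 neutrophil, 0 of 7 B cell, 0 of 8 T cell and 0 of 6 NK cell markers were higher in tumoral arrays. For alveolar macrophage markers the count was 0 of 7, and over all genes the share was 41.7%. The list means differed by -0.85 for endothelium, -0.68 for fibroblasts, -0.55 for epithelium and -0.50 for neutrophils. Without peritumoral 4 these 4 values were -0.43, -0.47, -0.35 and -0.31. The counts then were 1 of 10 endothelial, 1 of 9 neutrophil, 3 of 7 B cell and 3 of 7 alveolar macrophage markers, and stayed at 0 for the rest. The B cell, T cell, NK cell and alveolar macrophage lists differed by -0.29, -0.33, -0.31 and -0.24. Without peritumoral 4 those lists differed by 0.01, -0.22, -0.07 and -0.04. The endothelial list mean ran from 6.51 to 6.67 in tumoral and from 6.59 to 10.46 in peritumoral arrays, where the highest apart from peritumoral 4 was 8.27. In the other direction, 9 of 10 macrophage markers (list mean 0.19) and 5 of 6 monocyte markers (0.31) were higher in tumoral arrays, with list means of 11.26 to 11.93 against 10.77 to 11.72 and of 10.76 to 11.15 against 10.36 to 11.02. Without peritumoral 4 these 2 counts were 8 of 10 and 5 of 6, and the list means differed by 0.11 and 0.27. Of the conventional dendritic cell markers 7 of 10 were higher in tumoral arrays (list mean 0.02), and of the sorting markers 5 of 5 (0.07). Without peritumoral 4 those counts were 7 of 10 (0.02) and 3 of 5 (0.02). The part of these cell types in the level of Entpd1 was not tested.

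Within each place the mean of Entpd1 was also higher in tumoral arrays. In first-place arrays every tumoral value was above every peritumoral value, with a mean difference of 0.23 (3 arrays against 3), a separation that 4.12% of all genes had. In the second place the difference was 0.12 (2 against 3) and in the third 0.36 (3 against 2), again without overlap, as in 6.64% and 17.4% of all genes. Tumoral values lay above peritumoral values in all 3 places for 22 genes, Entpd1 among them, or 0.110%. The places were themselves noticed in these values, so these shares are a description. With place as a block the difference was 0.24 and the limma adjusted p 0.0861, which did not pass. The lowest value of all came from peritumoral 4, and without it the first-place difference was 0.11. Peritumoral 7 had the highest peritumoral value, and without peritumoral 7 and 8 the difference was 0.29, with a limma adjusted p of 0.0240. In that fit 522 genes passed, or 2.62%, against 0 with all arrays, so the call rests on leaving out those arrays. Entpd1 itself was not called between places (adjusted p = 0.412 in limma), with place means of 11.29, 11.18 and 11.20.

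**Figure D1:**
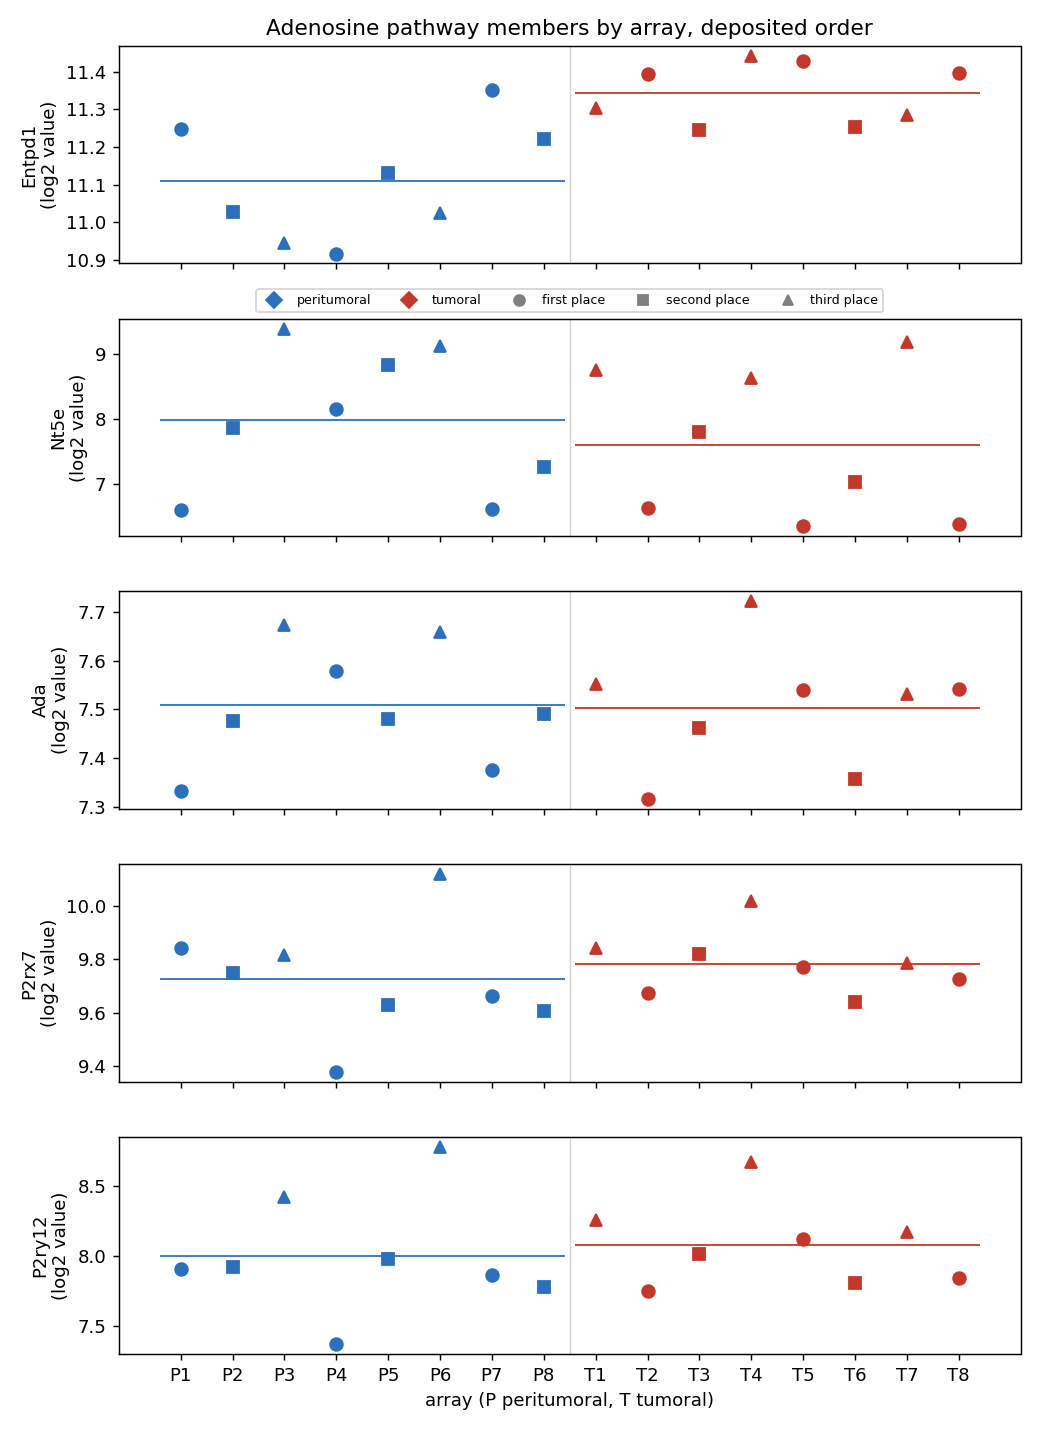
Log2 values of the 5 measured genes in each array, in deposited order, with colour for the title, marker shape for the place in each run of 3, and a line at each group mean (8 arrays each). Entpd1 lies higher in most tumoral arrays, whereas Nt5e is high in the third-place arrays (triangles) under either title.

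Nt5e, the CD73 gene, varied more than any other member and did not follow the title. It measured 6.60, 7.86, 9.40, 8.16, 8.84, 9.13, 6.62 and 7.27 in peritumoral 1 to 8. In tumoral 1 to 8 it measured 8.76, 6.64, 7.80, 8.64, 6.35, 7.03, 9.18 and 6.38. The 2 titles covered nearly the same range, with peritumoral values from 6.60 to 9.40 and tumoral values from 6.35 to 9.18. The highest and lowest arrays were 8.26-fold apart, and 99.6% of genes had a smaller SD over the 16 arrays. Group means were 7.60 ± 1.15 (SD, n = 8) in tumoral and 7.98 ± 1.09 (SD, n = 8) in peritumoral arrays. The log2 difference of -0.39 had a 95% interval from -1.45 to 0.68 and a limma adjusted p of 0.801. An interval of that width does not show that the titles are alike.

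By place, Nt5e followed an order with little overlap. First-place arrays measured 6.35 to 6.64, apart from peritumoral 4 at 8.16. Second-place arrays measured 7.03 to 8.84, and third-place arrays 8.64 to 9.40. The only third-place arrays that a second-place array, peritumoral 5, exceeded were tumoral 1 and 4. The third-place mean of 9.02 ± 0.31 (SD, n = 5) was 2.23 above the first-place mean of 6.79 ± 0.68 (SD, n = 6), or 4.69-fold. It was 1.26 above the second-place mean of 7.76 ± 0.70 (SD, n = 5). Of the 5 members 2, Nt5e and P2ry12, passed between places, where 33.6% of all genes did. For Nt5e the limma adjusted p was 4.55e-05. Without peritumoral 4, 38.9% of all genes and 4 of the 5 members passed, all but Entpd1.

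With place as a block the difference of Nt5e by title was -0.56, with a limma adjusted p of 0.206. Within the places it was -0.67, -0.57 and -0.40, each with overlapping titles. The first of these was -0.15 without peritumoral 4.

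The place order of Nt5e ran with markers of 2 myeloid cell types and with some markers of others. Of 10 macrophage markers 6 were higher in every third-place than in every first-place array, and 0 lower. Among these, Fcgr1, the high-affinity IgG receptor CD64, measured 10.01 to 10.72 in third-place and 8.03 to 9.20 in first-place arrays. C1qa, a complement component made by macrophages, measured 11.47 to 11.81 and 10.02 to 11.24. Of 10 dendritic cell markers 8 were lower in every third-place than in every first-place array. Flt3, a growth factor receptor of the lineage, measured 8.73 to 9.25 in third-place and 9.39 to 10.45 in first-place arrays. Cd209a, a lectin of CD11b+ dendritic cells, measured 10.74 to 11.43 and 12.23 to 12.84. Sirpa, a receptor that macrophages carry too, went the other way without overlap, at 12.03 to 12.22 against 11.58 to 11.91, and the lectin gene Clec10a overlapped, at 9.28 to 9.78 against 8.92 to 10.24. Third-place arrays also lay below first-place arrays without overlap in 5 of 7 B cell, 5 of 9 lung epithelial, 3 of 7 alveolar macrophage and 3 of 9 neutrophil markers. The same held for 2 of 8 T cell, 2 of 8 fibroblast, 1 of 10 endothelial and 0 of 6 NK cell markers. The share of all genes separated in this way was not counted, so whether these counts exceed it is not known. The 33.6% of all genes that passed between places in limma is a different measure. All 16 arrays gave signal for the macrophage and dendritic cell sets. The part of any of these cell types in the level of Nt5e was not tested. In sorted bulk cells, fewer cells of a type and less RNA per cell cannot be told apart.

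**Figure D2:**
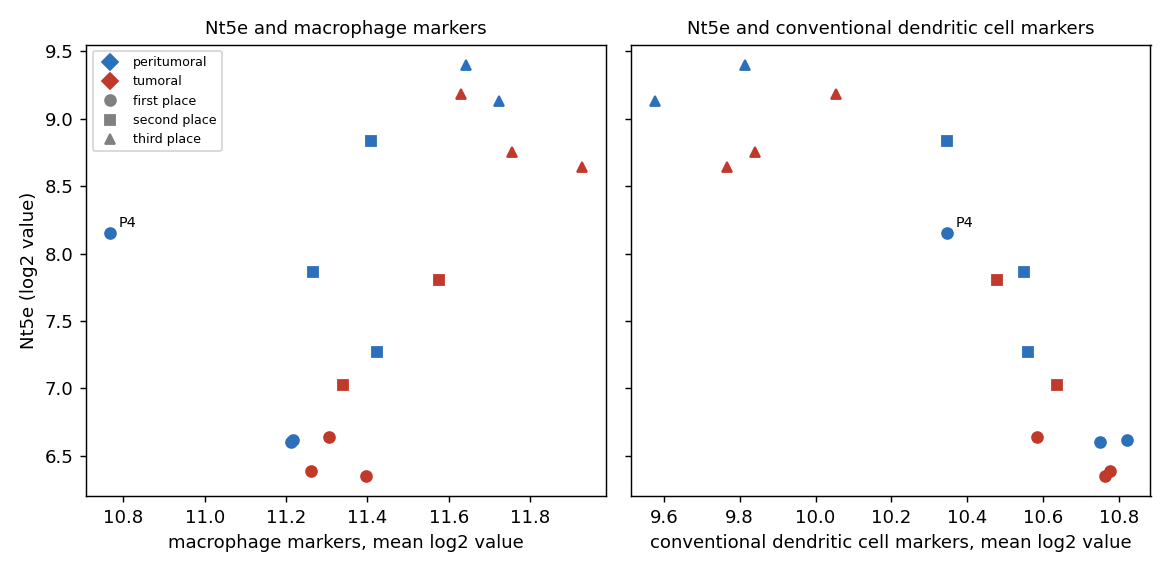
Nt5e (log2 value, vertical) against the mean log2 value of 10 macrophage markers (left) and 10 conventional dendritic cell markers (right), 1 point an array, with colour for the title and shape for the place. The third-place arrays join Nt5e of 8.64 or more with the highest macrophage and lowest dendritic cell means, and peritumoral 4 (P4) has the lowest macrophage mean.

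The genes whose pattern was most like that of Nt5e over the 16 arrays were Ctsl and Ppbp. Ctsl, which encodes the lysosomal protease cathepsin L, had a Pearson r of 0.98 and a Spearman rho of 0.91 to Nt5e. Ppbp, a chemokine gene also carried by platelets, had 0.97 and 0.95. Ppbp measured 7.21 to 9.59 in first-place, 8.02 to 10.18 in second-place and 10.43 to 11.39 in third-place arrays. After each gene's place means were taken out the Pearson r values to Nt5e were 0.93 for Ctsl and 0.92 for Ppbp. These genes were picked as the highest of all, so no p is given. The 5 measured platelet markers, of which Ppbp is 1, were split. Pf4, the platelet factor 4 gene, followed the order of Ppbp, at 10.92 to 11.30 in third-place against 8.91 to 10.13 in first-place arrays. Itga2b and Gp9, which encode platelet surface proteins, went the other way, with 6.73 to 6.94 and 6.52 to 6.72 against 7.01 to 7.21 and 6.82 to 7.26, and Treml1 overlapped, at 7.02 to 7.44 against 7.23 to 7.42. The mean of the list was highest in third-place arrays, at 8.41 to 8.58 against 7.67 to 8.30 elsewhere. The part of platelets in the level of Nt5e was not tested.

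Ada, which removes adenosine, differed least by title. It measured 7.33, 7.48, 7.67, 7.58, 7.48, 7.66, 7.38 and 7.49 in peritumoral 1 to 8 and 7.55, 7.32, 7.46, 7.72, 7.54, 7.36, 7.53 and 7.54 in tumoral 1 to 8. The 2 ranges nearly coincided, with means of 7.503 ± 0.13 (SD, n = 8) in tumoral and 7.508 ± 0.12 (SD, n = 8) in peritumoral arrays. The log2 difference was -0.005, with a 95% interval from -0.15 to 0.13 and a limma adjusted p of 0.985, and its sign turned with quantile normalization, cyclic loess and centring. By place it measured 7.45 ± 0.12 (SD, n = 6), 7.45 ± 0.05 (SD, n = 5) and 7.63 ± 0.08 (SD, n = 5), with a limma adjusted p of 0.0647 that was 0.0414 without peritumoral 4. The genes most like Ada in pattern were Mzt2, a microtubule organizing gene (r = 0.92, rho = 0.84), and Trmt10c, a subunit of mitochondrial RNase P (r = 0.91, rho = 0.86).

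P2rx7 encodes an ATP-gated channel that opens the way to inflammasome activation. It measured 9.85, 9.75, 9.82, 9.38, 9.63, 10.12, 9.66 and 9.61 in peritumoral 1 to 8 and 9.84, 9.67, 9.82, 10.02, 9.77, 9.64, 9.79 and 9.73 in tumoral 1 to 8. Peritumoral 4 was lowest and peritumoral 6 highest, so that the tumoral range lay within the peritumoral one. Means were 9.78 ± 0.12 (SD, n = 8) in tumoral and 9.73 ± 0.22 (SD, n = 8) in peritumoral arrays. The log2 difference was 0.06, with a 95% interval from -0.12 to 0.24 and a limma adjusted p of 0.829. It was not called between places with all arrays (limma adjusted p = 0.0710), with third-place arrays at 9.79 to 10.12 and the rest at 9.38 to 9.85. Without peritumoral 4 the place term passed at 0.0460.

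P2ry12 encodes an ADP receptor best known from platelets and microglia. It measured 7.91, 7.92, 8.42, 7.37, 7.98, 8.78, 7.86 and 7.78 in peritumoral 1 to 8 and 8.26, 7.75, 8.01, 8.67, 8.12, 7.81, 8.17 and 7.84 in tumoral 1 to 8. As with P2rx7, peritumoral 4 was lowest and peritumoral 6 highest, and the tumoral values lay between them. Means were 8.08 ± 0.30 (SD, n = 8) in tumoral and 8.003 ± 0.42 (SD, n = 8) in peritumoral arrays. The log2 difference by title was 0.08, with a 95% interval from -0.28 to 0.43 and a limma adjusted p of 0.902. It turned to -0.015 without peritumoral 4 and to -0.0093 without tumoral 4. By place, P2ry12 separated the third-place arrays from all others, at 8.17 to 8.78 against 7.37 to 8.12, as Itgam did. The share of all genes with such a separation was not counted. The third-place mean of P2ry12, at 8.46 ± 0.26 (SD, n = 5), was 0.65 above the first-place and 0.56 above the second-place mean. The place term passed in limma (adjusted p = 0.00154), as it did for 33.6% of all genes. The same third-place arrays held the highest macrophage markers, whose part in this was not tested. The P2ry12 gene overlaps Med12l in the annotation, and whether its probe set also reads that gene is not known here.

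P2rx7 and P2ry12 varied together over the arrays. Their Pearson r was 0.92 and their Spearman rho 0.81 over 16 arrays (permutation p = 1e-05, the smallest that 100000 resamples can give, and 0.00023). The family held 13 pairs, 10 of members and 3 of a member with a chromosomal neighbour, and the adjusted p was 0.00013 for r and 0.00149 for rho. The r was 0.92 within the 8 peritumoral and 0.96 within the 8 tumoral arrays (exact permutation, adjusted p = 0.0356 and 0.00494). Without peritumoral 4 and 6, the 2 arrays farthest from the median of P2rx7, r was 0.83. Within the 6 first-place arrays it was 0.90 (exact permutation, adjusted p = 0.113), and after place means were taken out it was 0.89. Both of these values include peritumoral 4, the lowest array for P2rx7 (9.38) and for P2ry12 (7.37). Neither was computed without it, so how closely the 2 genes ran together within places is not settled. Without peritumoral 4 the r over 15 arrays was 0.89 (permutation, adjusted p = 0.00013). P2rx7 and P2ry12 lie on chromosomes 5 and 3. The genes most like P2rx7 in pattern were P2ry12 itself and P2ry6, a UDP receptor (r = 0.91, rho = 0.85). Those most like P2ry12 were Abcc3, an organic anion transporter (r = 0.98, rho = 0.94), and Scamp5 (r = 0.96, rho = 0.90).

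Nt5e and P2ry12 were both highest in third-place arrays, but this positive relation was not seen once place means were taken out with all arrays kept. Their r was 0.57 and their rho 0.57 over 16 arrays (permutation p = 0.0196 and 0.0237, adjusted p = 0.0364 and 0.0615). After place means were taken out r was -0.35, and within the 6 first-place arrays it was -0.91 (exact permutation p = 0.0250, adjusted p = 0.113), where peritumoral 4 combined the highest Nt5e with the lowest P2ry12. Both values include peritumoral 4, whose Nt5e was 8.16 against 6.35 to 6.64 in the other first-place arrays. Neither was computed without it, so they do not settle the sign within places. Without peritumoral 4 the r over 15 arrays was 0.71 (permutation, adjusted p = 0.00663). Without peritumoral 3 and tumoral 5 it was 0.59 (permutation, adjusted p = 0.0599).

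Ada was related to both in the pooled arrays. Its r was 0.67 with Nt5e and 0.65 with P2ry12, with rho of 0.54 and 0.58 (permutation, adjusted p = 0.0158 for each r, and 0.0679 and 0.0615 for rho). After place means were taken out these r values were 0.32 and 0.18. For Nt5e and Ada r was 0.89 within peritumoral and 0.48 within tumoral arrays (exact permutation, adjusted p = 0.0356 and 0.334). Without peritumoral 3 and tumoral 5 it was 0.70. For Ada and P2ry12 r was 0.50 within peritumoral and 0.89 within tumoral arrays (exact permutation, adjusted p = 0.302 and 0.0110). Without tumoral 2 and 4 it was 0.52 and did not pass (permutation, adjusted p = 0.125), whereas without peritumoral 4 it was 0.85 (permutation, adjusted p = 0.00013). Ada and P2rx7 had an r of 0.43 and a rho of 0.32 that did not pass over all arrays (permutation p = 0.0978 and 0.222, adjusted p = 0.141 and 0.320). Their r was 0.22 within peritumoral and 0.89 within tumoral arrays (exact permutation, adjusted p = 0.727 and 0.0137). It was 0.66 without peritumoral 4 and 0.27 without tumoral 2 and 4 (permutation, adjusted p = 0.0162 and 0.466), and -0.073 after place means were taken out. Entpd1 and Nt5e ran in opposite directions, with an r of -0.54 and a rho of -0.53 (permutation p = 0.0330 and 0.0366, adjusted p = 0.0536 and 0.0679) that did not pass. Without peritumoral 4 that r was -0.57 and passed (permutation, adjusted p = 0.0463). Without peritumoral 3 and 4 it was -0.46 (permutation, adjusted p = 0.175), and after place means were taken out, with peritumoral 4 kept, it was -0.73. The genes most like Entpd1 were Marcks, an actin-binding protein kinase C substrate (r = 0.91, rho = 0.85), and Mcl1, an anti-apoptotic BCL2 relative (r = 0.91, rho = 0.89).

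**Figure D3:**
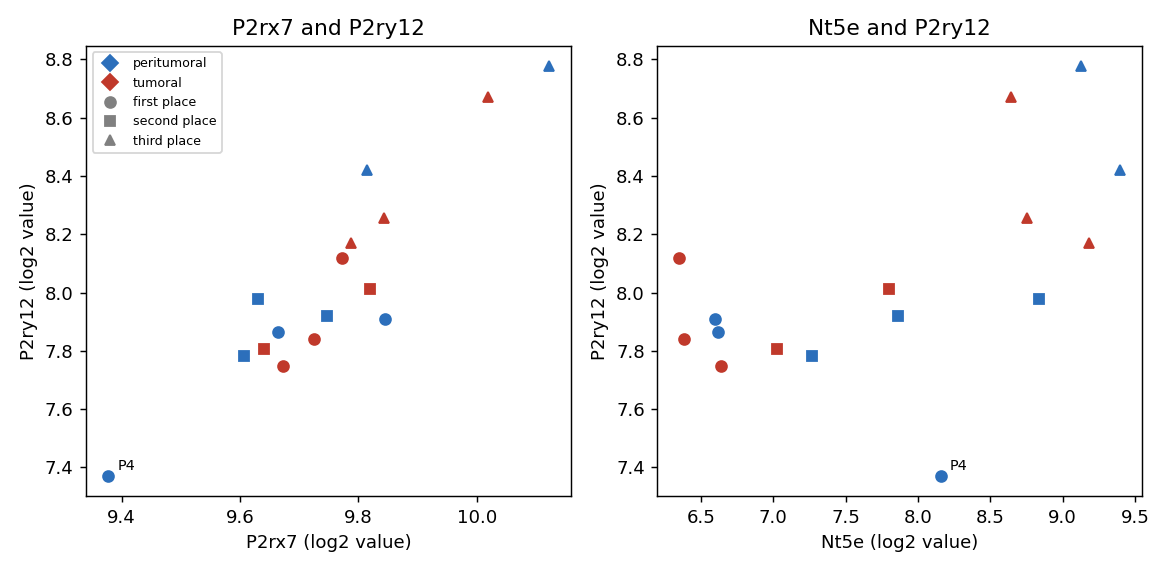
P2ry12 (log2 value, vertical) against P2rx7 (left) and against Nt5e (right), 1 point an array, with colour for the title and shape for the place. P2ry12 follows P2rx7 along 1 line (r = 0.92), whereas against Nt5e the third-place arrays stand apart and peritumoral 4 (P4) lies lowest.

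Of the chromosomal neighbours, only 3 P2 receptor genes were compared with a member. P2ry13, an ADP receptor next to P2ry12, had an r of 0.86 and a rho of 0.87 with it (permutation, adjusted p = 0.000455 and 0.00052). Within the first-place arrays r was -0.015 (exact permutation, adjusted p = 0.988), and without peritumoral 4 it was 0.96 over 15 arrays. P2ry13 measured 9.37 to 10.25 in third-place arrays against 8.63 to 9.30 in the others. P2ry14, a UDP-sugar receptor, had an r of 0.71 and a rho of 0.75 with P2ry12 (permutation, adjusted p = 0.00992 and 0.00494). P2rx4, an ATP-gated channel next to P2rx7, had an r of 0.65 and a rho of 0.48 with it (permutation, adjusted p = 0.0158 and 0.101). That relation rested on the extreme arrays, with an r of 0.45 without peritumoral 4 and 6. After place means were taken out the 3 values were 0.53, 0.31 and 0.37.

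Of 78 genes on the lists of purine handling and its downstream response, members included, 68 were measured. By title, 0 rose and 0 fell at an adjusted p of 0.05 in limma, as 0% did over all genes. At an unadjusted p under 0.05 there were 5 higher and 3 lower in tumoral arrays, where 5.60% and 5.90% of all genes reached that level in each direction. The means of 33 were higher, beside 41.7% of all genes, and of 35 lower, with a median difference of -0.003 against -0.02 over all genes. By place, 31 of the 68 passed, beside 33.6% of all genes.

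Among 13 measured ectonucleotidases, which break down extracellular nucleotides, 3 were higher and 10 lower, with a median of -0.09. Entpd4, a Golgi and lysosomal relative of CD39, differed by -0.17 (9.03 ± 0.13 against 9.20 ± 0.15, SD, n = 8 each). Acpp, a phosphatase that can also make adenosine, differed by -0.24 (6.82 ± 0.15 against 7.06 ± 0.28). Neither passed (limma adjusted p = 0.401 and 0.408). Of 14 genes for adenosine clearance, transport and salvage 7 were higher and 7 lower. Adk, the kinase that returns adenosine to AMP, differed by -0.15 (limma adjusted p = 0.526), and Nt5c2, a cytosolic nucleotidase, by 0.15 (limma adjusted p = 0.453).

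Of 7 P2X receptors 2 were higher and 5 lower, and of 8 P2Y receptors 4 were higher and 4 lower, all short of the threshold. P2rx4 differed by 0.22 and P2rx6 by -0.08, P2ry6 by 0.18 and P2ry14 by 0.20 (limma adjusted p from 0.528 to 0.659). By place, 6 of the 8 P2Y receptors passed and 1 of the 7 P2X receptors, P2rx4, where 33.6% of all genes did; the difference between the 2 families was not tested. P2ry6 had place means of 10.93, 11.06 and 11.44, and P2rx4 of 10.40, 10.68 and 10.97.

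Genes of the downstream response held the 2 largest differences by title among the 68. Pde3b, a phosphodiesterase that degrades cAMP, the messenger made after A2 receptor activation, measured 9.84 ± 0.23 in tumoral and 9.33 ± 0.28 in peritumoral arrays (SD, n = 8 each). Its log2 difference of 0.50 had an adjusted p of 0.239 in limma, and it passed at 0.0225 without peritumoral 7. In that fit 128 genes passed, against 0 with all arrays. Pde3b also passed between places (limma adjusted p = 0.0181), as 33.6% of all genes did, with place means of 9.80, 9.49 and 9.43. Crem, a cAMP-responsive transcription factor gene, differed by 0.35 (limma adjusted p = 0.349). Of 16 measured genes of cAMP signalling 9 were higher and 7 lower. Casp1, the inflammasome protease downstream of P2rx7, measured 8.80 ± 0.17 and 8.30 ± 0.39, a log2 difference of 0.50 (limma adjusted p = 0.248). Nlrp3, the inflammasome sensor, differed by 0.37 (limma adjusted p = 0.329). Of 10 genes of ATP release and the inflammasome 8 were higher, with a median of 0.08.

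**Figure D4:**
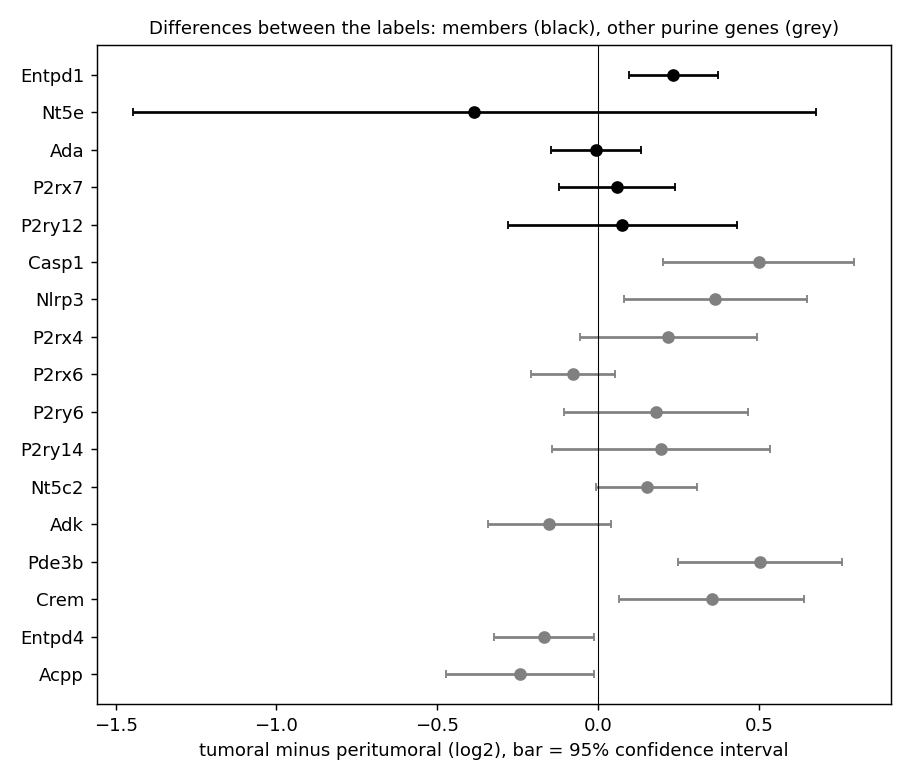
Log2 difference, tumoral minus peritumoral, with its 95% confidence interval from limma for the 5 measured members (black) and 12 other purine pathway genes (grey), from 8 arrays a title. Among the members only Entpd1 has an interval that is positive throughout, Nt5e has the widest, and no gene passes after adjustment over all genes.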

How the data were processed

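Total RNA from the sorted cells was converted to biotin-labelled cDNA (Ambion WT Expression Kit) for an Affymetrix whole-transcript array, per the labels' protocols. The authors deposited a table of 28853 probe sets by 16 arrays, read here as log2 because its values run from 2.31 to 14.33. How they corrected background and normalized, and which log base they took, is not given in the sources used here. Names came from the platform annotation, in which 21789 probe sets had 1 symbol, 1621 several and 5443 none, and 0 symbols changed against an NCBI table of GRCm38.p6. The probe set with the highest mean was kept where a gene had several. The test by title was limma 3.58.1 under R 4.3.3 (tumoral minus peritumoral, 14 residual degrees of freedom), with Benjamini-Hochberg adjustment over 19938 genes, and limma was checked on simulated data. Correlations used 100000 resamples, or every permutation where n was under 10. Arrays were shuffled without regard to place, so these p-values make no allowance for it.

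The members and lists were chosen with earlier results of these data known. The genes named are the members, the 2 others of each of the purine lists with the smallest unadjusted p, the 2 genes most correlated with each member, and sorting markers; other marker genes, the chromosomal neighbours and Med12l were named after values were seen, as was the grouping by place. Lists hold 7 groups of purine genes and 13 of cell markers. Same-numbered arrays of the 2 titles did not vary together (r of deviations from -0.56 to 0.29, 0 of 8 best with their own number). Same-numbered arrays never shared a place, and place was not taken out, so this check cannot show whether they were paired. Alternatives were other normalizations, filters, variance models, weights, blocks, an exact permutation test over 12870 assignments and left-out arrays. Scanner files were not used here.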

Additional observations from a re-analysis of the deposited data

How the results depend on the processing

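Over 16 fits that left out 1 array each, the number of genes called ran from 0 to 128 (128 without peritumoral 7, 20 without peritumoral 8), members called stayed at 0, and pathway genes called ran from 0 to 1 (Pde3b, without peritumoral 7). Leaving out peritumoral 4 and 7 gave 88 genes and 1 pathway gene. Leaving out peritumoral 7 and 8 gave 522 genes, 3 pathway genes and 1 member, Entpd1 (0.29). The place block without peritumoral 4 gave 8 genes. All other alternatives gave 0 for each count, including the replicate block (Entpd1 at 0.23, limma adjusted p = 0.405), the exact permutation test and an adjusted p threshold of 0.10. With 1 array left out, the difference ran from 0.21 to 0.27 for Entpd1, -0.61 to -0.18 for Nt5e, -0.037 to 0.021 for Ada, 0.0091 to 0.12 for P2rx7 and -0.015 to 0.19 for P2ry12. The Entpd1 difference was 0.18 with quantile normalization, 0.18 with cyclic loess, 0.16 with array weights and 0.29 with centring. Ada turned to 0.023 with quantile normalization, 0.0098 with cyclic loess, 0.047 with centring and 0.020 with array weights. Without peritumoral 4 and 7, P2rx7 turned to -0.0096 and P2ry12 to -0.053, and in the place block without peritumoral 4 to -0.016 and -0.067. The cause was not tested.

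Of the correlations, Entpd1 with Ada turned to 0.44 within tumoral arrays, and Entpd1 with P2rx7 to -0.13 without the 2 farthest arrays and -0.15 without peritumoral 4. Entpd1 with P2ry12 turned to -0.17 within peritumoral arrays, -0.12 without the 2 farthest and -0.25 without peritumoral 4. Within first-place arrays Nt5e turned to -0.91 with both P2rx7 and P2ry12, Ada to -0.46 with P2rx7 and -0.23 with P2ry12, and P2ry12 with P2ry13 to -0.015. Without scanner files, signal over background could not be examined, so dim probe sets cannot be told from undetected ones.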
